A study of Mus musculus with 2 samples.

Results

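The connexin genes Gja1, Gjb2, Gjb6 and Gjb5, which encode gap junction proteins of the epidermis, were followed in mouse keratinocytes labelled as deleted for Chuk and in wild-type ones. The members were all gene probes whose name on the arrays equalled 1 of these 4 symbols. They came to 6 probes on 15 spots of each array, out of 41174 gene probes for 21337 named genes. All 6 probes were bright enough to be tested. Total RNA was compared on 2 arrays with 2 dyes. On each of them, Cy3 carried RNA of wild-type keratinocytes and Cy5 carried RNA of keratinocytes that the sample titles call a CHUK-LoxP mutant and the sample descriptions call deleted for the gene. LoxP sites are the sequences at which Cre recombinase cuts. The labels give no Cre driver, strain, age, culture condition or treatment for either genotype. The arrays are numbered as replicates, with nothing on whether separate cultures or mice were used. Each p-value below therefore covers no more than the spread of 2 arrays, which could be technical. All wild-type RNA was in the same dye, so genotype and dye cannot be told apart in the ratio of any 1 probe.

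A gap junction is a patch of channels through which neighbouring cells exchange ions and small molecules. Each cell contributes a hemichannel, a ring of connexin proteins, and the rings of both cells dock across the gap. Keratinocytes use several connexins, and the set in use changes as cells leave the basal layer and mature. Mutations of the human genes for the connexins of Gjb2 and Gjb6 cause deafness and thickened skin. Chuk encodes the kinase IKK-alpha, which is needed for the maturation of the epidermis.

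The promoters of the 3 connexin genes whose signal differed between the channels are shown because Gjb2 and Gjb6 lie next to each other on chromosome 14 and moved the same way, while Gjb5 moved the opposite way. Each window holds the 250 bases before the RefSeq start of the gene in GRCm38.p6, read 5′ to 3′ on the gene's own strand, which is the minus strand for all 3. Capitals mark matches on either strand to TATAAA (the TATA box), to CCAAT (the CCAAT box), to GGGCGG (the GC box), to TGANTCA (the AP-1 site) or to the kappaB consensus, the DNA motif of the transcription factors downstream of the IkappaB kinases.
Gjb2, chr14:57104703-57104952: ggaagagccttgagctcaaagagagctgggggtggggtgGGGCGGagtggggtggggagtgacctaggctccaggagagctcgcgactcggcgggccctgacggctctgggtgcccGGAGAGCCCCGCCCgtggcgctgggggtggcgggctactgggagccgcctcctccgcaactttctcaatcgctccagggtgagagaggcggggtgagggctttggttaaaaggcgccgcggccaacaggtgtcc
Gjb6, chr14:57133612-57133861: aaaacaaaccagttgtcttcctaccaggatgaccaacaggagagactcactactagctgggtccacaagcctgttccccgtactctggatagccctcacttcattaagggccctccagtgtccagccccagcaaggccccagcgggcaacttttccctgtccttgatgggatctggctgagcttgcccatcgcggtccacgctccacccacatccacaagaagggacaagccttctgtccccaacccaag
Gjb5, chr4:127358165-127358414: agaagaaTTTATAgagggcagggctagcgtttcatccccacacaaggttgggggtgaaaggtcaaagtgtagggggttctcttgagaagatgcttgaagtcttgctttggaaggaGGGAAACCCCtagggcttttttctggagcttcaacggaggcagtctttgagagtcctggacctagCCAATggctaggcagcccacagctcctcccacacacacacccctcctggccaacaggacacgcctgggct

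The Gjb2 window held 2 GC boxes, 211 and 126 bases before the start, and 1 kappaB match 134 bases before it that overlapped the nearer GC box. The Gjb5 window held a TATAAA match on the opposite strand 243 bases before the start, a CCAAT match at 70 and a kappaB match at 135. None of the motifs matched the Gjb6 window, which says only that these letters are not in these 250 bases. The Gja1 window, at chr10:56377050-56377299 on the plus strand, held 1 AP-1 match 19 bases before the start. Of 32851 windows of the same length, 12.4% held TATAAA, 33.8% CCAAT, 32.7% the GC box, 6.75% the AP-1 site and 3.9% the kappaB consensus. The Gjb2 window was the richest of the 4 in G and C at 69.2%, against 56.8% for Gjb6, 54.4% for Gjb5, 50% for Gja1 and a median of 52.4% over all windows. The kappaB consensus was the only motif found in more than 1 of the 4 windows, those of Gjb2 and Gjb5. Whether any of these matches bears on the ratios was not tested.

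Ratios below are log2 of Cy5 over Cy3 after background correction and loess, which removes the part of the ratio that depends on brightness within an array. Values are means of the 2 arrays with their SD (n = 2). A gene is said to have risen or fallen where the Benjamini-Hochberg adjusted p of limma's moderated test, over all probes tested, was under 0.05. Uncorrected, the median spot of array 1 read 109.9 in Cy3 and 218 in Cy5, that of array 2 95.2 and 171.5, so a raw difference between the dyes is not a difference between genotypes. The share of gene spots well above background ranged from 53.2% to 64.5% over the 4 array channels. The probes for Chuk went against the label: A_51_P223475 gave 0.74 ± 0.02 (limma adjusted p = 0.000101) and A_52_P386468 0.85 ± 0.11 (limma adjusted p = 0.000103), while the former lay at -0.026 after each array was lowered by its spike-in controls. The deleted stretch of Chuk and the place of these probes in it are not given in the sources used here, so every direction below rests on the channel labelled Chuk-deleted.

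Of the 4 connexin genes, Gjb2 and Gjb6 fell, Gjb5 rose and Gja1 did not pass the test. Over all 13739 genes tested, 61.3% passed it, 33.0% in the higher and 28.3% in the lower direction, so a call alone sets no member apart. Size did more to separate them. Both falling members were at least 2-fold lower on both arrays, as were 3.21% of genes tested. No member was at least 2-fold higher on both arrays, against 1.50% of genes.

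**Figure D1:**
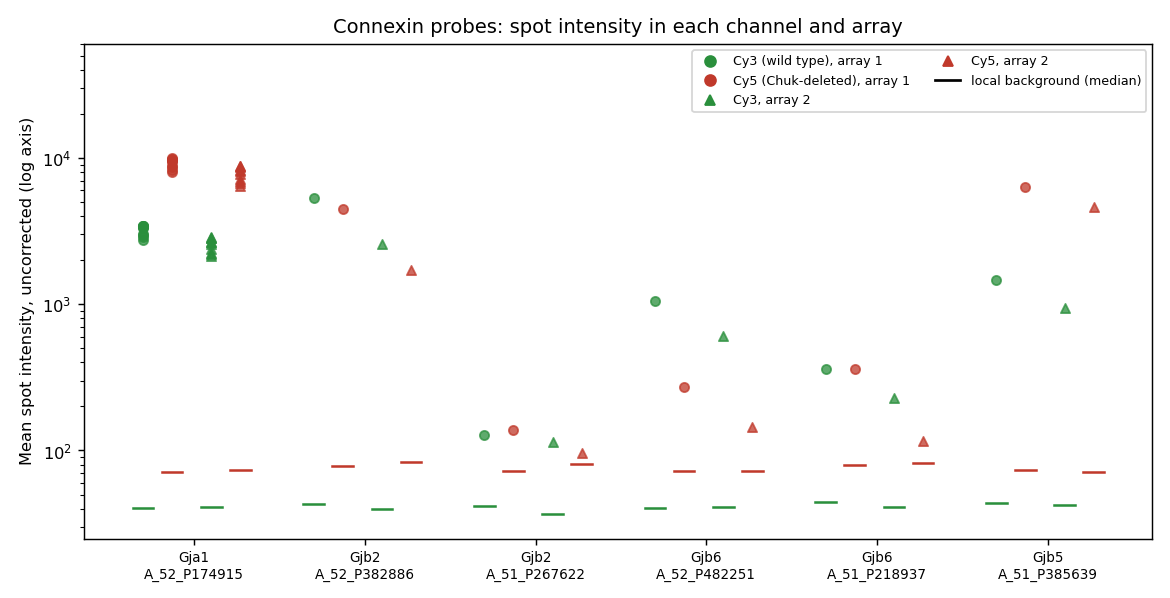
Mean spot intensity of each connexin probe on a log axis, uncorrected, in Cy3 (wild type, green) and Cy5 (labelled Chuk-deleted, red) on array 1 (circles) and array 2 (triangles), with short lines for the median local background. In the brighter Gjb6 probe Cy5 lay below Cy3 on both arrays, while in Gjb5 and in all 10 spots of Gja1 Cy5 lay above Cy3.

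Gjb6, whose human counterpart is mutated in a form of ectodermal dysplasia, showed the largest difference of the 4. Its brighter probe, A_52_P482251, had a spot intensity of 1059 in Cy3 and 271 in Cy5 on array 1, and of 601 and 146 on array 2. The signal was lower in Cy5 on both arrays although Cy5 was the brighter dye over all spots. The log2 ratios were -3.27 and -3.33, with a mean of -3.30 ± 0.04, a 9.86-fold fall (95% interval of the log2 ratio -3.43 to -3.17, limma adjusted p = 9.04e-06). Without the offset added in background correction they were -3.69 and -4.22, with a mean of -3.96 ± 0.37, which lies outside that interval. The small SD and the narrow interval thus depend on the processing. Only 29 of the 13739 genes, 0.211%, had a lower mean ratio. In the scanner software's own ratios, the same probe stood at -3.91 and -4.69.

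The dimmer Gjb6 probe, A_51_P218937, had intensities of 358 in Cy3 and 360 in Cy5 on array 1, and of 227 and 117 on array 2. On array 1, where both channels were well above background, its log2 ratio was -1.24, against -3.27 for the brighter probe, a gap of 2.03. On array 2 Cy5 was not well above its background of 82, so the ratio of -2.18 there, and the mean of -1.71, rest on a signal that was not detected. Both probes read lower in Cy5 after loess on both arrays. On array 1 both were detected in both channels and disagreed on the size of the fall. On array 2 the dimmer one sets no size for it.

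Gjb2, the other connexin gene of this pair on chromosome 14, is known for its rise in wounded and overgrowing epidermis. Its brighter probe, A_52_P382886, had intensities of 5287 in Cy3 and 4488 in Cy5 on array 1, and of 2558 and 1723 on array 2. The log2 ratios were -1.70 and -2.00, with a mean of -1.85 ± 0.21, a 3.61-fold fall (95% interval -2.05 to -1.66, limma adjusted p = 2.95e-05). A lower mean ratio was seen in 177 genes, 1.29% of those tested. The fall thus stood among the larger ones of the arrays.

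A second Gjb2 probe, A_51_P267622, was dim, with 127.3 in Cy3 and 137.7 in Cy5 on array 1 and 115 and 95.6 on array 2. It gave a log2 ratio of -0.78 on array 1, against -1.70 for the brighter probe. Its -1.24 on array 2 rests on a Cy5 signal that was not well above its background of 81. The added offset of 50 pulls ratios of dim spots towards 0. Without it, the array 1 ratios were -1.31 for this probe and -1.73 for the brighter one. In the scanner software's own ratios the 2 probes lay close together on array 1, at -1.77 and -1.70. In Gjb6 the array 1 ratios without the offset were -1.51 for the dimmer and -3.69 for the brighter probe. The software's ratios there were -1.60 and -3.91.

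Gjb5, a connexin of stratified epithelia and the placenta, moved the opposite way. Probe A_51_P385639 had intensities of 1455 in Cy3 and 6299 in Cy5 on array 1, and of 940 and 4637 on array 2. Both channels were well above background on both arrays. The log2 ratios of 0.68 and 0.89 had a mean of 0.79 ± 0.15, a 1.73-fold rise (95% interval 0.63 to 0.95, limma adjusted p = 0.000188), which became 0.024 (limma adjusted p = 0.851) once the spike-in mean was taken off. A higher mean ratio was seen in 491 genes, 3.57% of those tested.

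Gja1, the most widespread connexin gene of the body and a main one of the skin, was read by probe A_52_P174915 on 10 spots of each array. On array 1 the Cy3 intensities ran from 2759 to 3432 with a median of 3363, and those of Cy5 from 8003 to 10037 with a median of 9514. On array 2 they ran from 2140 to 2861 with a median of 2613 in Cy3, and from 6414 to 8740 with a median of 7910 in Cy5. The raw channels did not overlap, and after loess the gap was nearly gone.

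The log2 ratios of the 10 Gja1 spots had a median of 0.07 on array 1, where 9 of 10 lay above 0, and of 0.15 on array 2, where all 10 did. Repeated spots share their RNA and count as 1 measurement, but they show how finely an array read the gene: their SD was 0.03 on array 1 and 0.02 on array 2. The means of 0.06 and 0.15 gave 0.10 ± 0.06, or 1.07-fold (limma adjusted p = 0.152). The 95% interval ran from -0.03 to 0.23, which leaves room for a small difference in either direction under this scaling. With the spike-in mean taken off, Gja1 passed the threshold in the lower direction, at -0.66, and after median centring in the higher one, at 0.78. Of all genes tested, 60.6% had a lower mean ratio than Gja1.

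The members differed more from each other than the arrays did. The ratio of Gjb5 exceeded that of Gjb6 by 3.95 and 4.22 on the log2 scale, and that of Gjb2 by 2.38 and 2.90. Gjb2 exceeded Gjb6, its neighbour, by 1.57 and 1.33. These differences are between the brighter probes. Against the main Gjb2 probe, the dimmer Gjb6 probe on array 1 was the higher of the pair, at -1.24 beside -1.70. Gjb5 exceeded Gja1 by 0.63 and 0.75. Each of these 4 differences had the same sign on both arrays, but with 2 arrays an exact permutation test cannot go below p = 0.5, and they are given as descriptions. A shift common to a whole array cancels in such differences, but not one that depends on brightness.

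**Figure D2:**
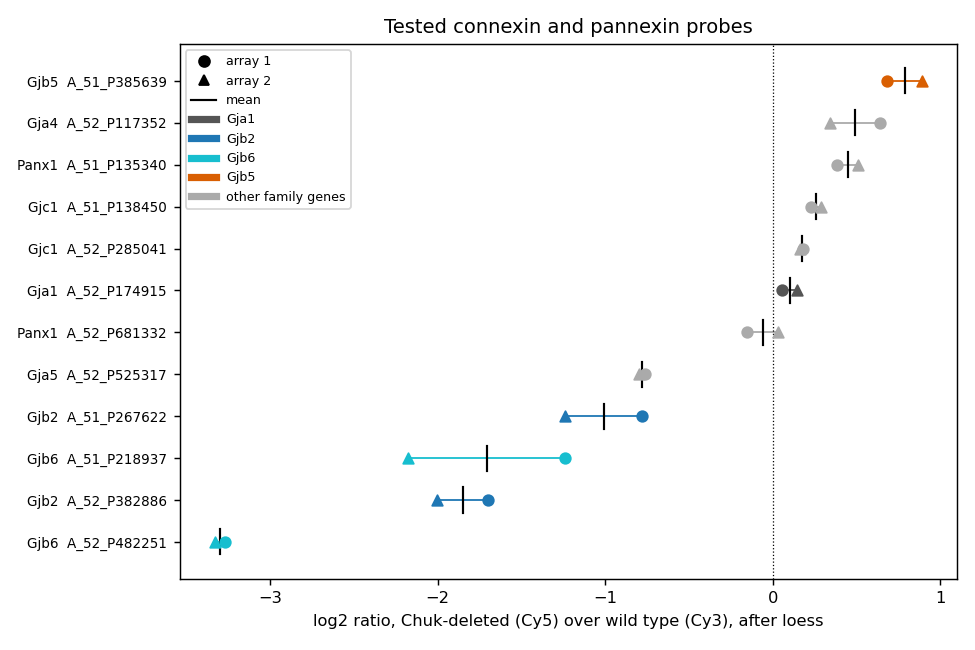
Log2 ratios of Cy5 (labelled Chuk-deleted) over Cy3 (wild type) for the tested connexin and pannexin probes reported here, ordered by the mean, on array 1 (circles) and array 2 (triangles), with the mean as a vertical line. The brighter Gjb6 probe, at -3.30, stands apart at the low end and Gjb5, at 0.79, is at the high end.

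Scaling decides where 0 lies for the smaller ratios. The median of all genes was 0.02 after loess and 0.55 when arrays were centred on their median spot alone, without loess. It was -0.74 when arrays were lowered after loess by the mean of their 320 spike-in control spots. Gja1 moved with this median, to 0.78 and -0.66, and Gjb5 to 1.43 and 0.024. With the median of all genes subtracted, the ratio of Gja1 lay between 0.08 and 0.23 and that of Gjb5 between 0.76 and 0.88 over the 11 settings that used both arrays and the brighter probe. That of Gjb2 lay between -1.91 and -1.75 and that of Gjb6 between -4.33 and -3.26. The spike-in step takes a constant off each array, so it cancels in these differences and cannot widen the ranges.

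**Figure D3:**
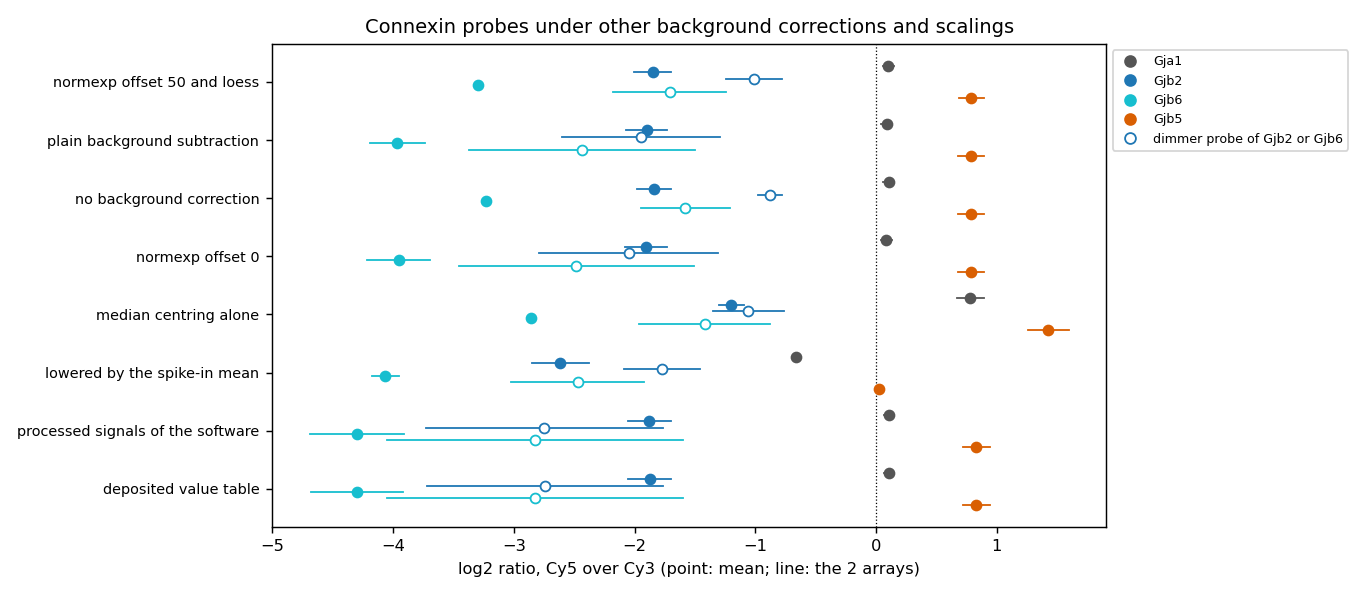
Mean log2 ratio of the connexin probes (points) with the values of the 2 arrays (ends of the lines) under 8 ways of correcting background and scaling; open points are the dimmer probes of Gjb2 and Gjb6. Gjb2 and Gjb6 stay below 0 in each of the 8, while Gja1 lies at 0.78 after median centring and at -0.66 with the spike-in mean taken off.

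Of the connexin genes reported here, 18 in number with the 4 members, all had a probe and 7 were tested. Of those 7, 3 rose, 3 fell and 1 did not pass, while after the spike-in step 0 were higher and 6 lower. Their median log2 ratio was that of Gja1 itself, 0.10, beside 0.02 for all genes tested, and moved with it to 0.78 after median centring and to -0.66 after the spike-in step.

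Gja4 and Gja5 are best known from the walls of blood vessels. Gja4 rose, with 0.64 and 0.34 (mean 0.49 ± 0.21, limma adjusted p = 0.00233), and lay at -0.27 after lowering by the spike-in mean. Gja5 fell by 0.78 ± 0.03 (limma adjusted p = 8.69e-05) in the only 1 of its 4 probes that was tested. Gjc1, which the arrays list under its older name, rose by 0.26 ± 0.04 (limma adjusted p = 0.00625) and lay at -0.51 after the spike-in step.

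The other 11 connexin genes, among them Gja3, the neighbour of Gjb2, and Gjb1, a main connexin of the liver, were not tested. The intensities of their 13 probes lay between 58.8 and 83.2 in Cy3 and between 77.8 and 124.2 in Cy5, and 1 probe, that of Gjd3, was well above background, in Cy5 on 1 array. Of the pannexins, which form membrane channels without being connexins, Panx1 was tested and rose by 0.45 ± 0.09 (limma adjusted p = 0.00088), but its second probe gave -0.06 (limma adjusted p = 0.442) and the spike-in step turned the first to -0.32.

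The genes around Gjb2 and Gjb6 were read off the RefSeq order, a choice made after values had been seen. On chromosome 14 the pair is followed by Cryl1, which rose by 0.35 ± 0.10 (limma adjusted p = 0.0028) and lay at -0.42 after the spike-in step. The nearest tested gene on the other side was Zmym2 at -0.13 ± 0.08 (limma adjusted p = 0.0844), with 0.44 after median centring. The large falls thus covered the 2 connexin genes and neither tested flank.

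**Figure D4:**
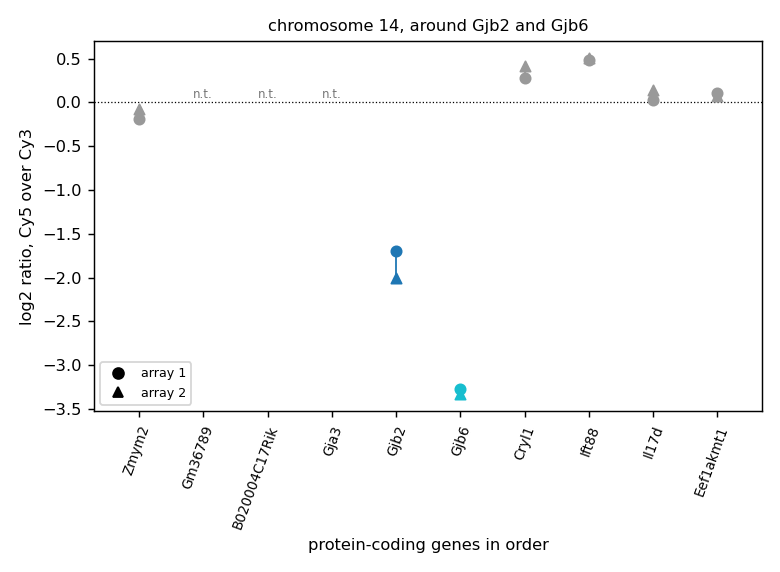
Log2 ratio of Cy5 (labelled Chuk-deleted) over Cy3 on array 1 (circles) and array 2 (triangles) for protein-coding genes in chromosome order around Gjb2 and Gjb6; n.t. marks genes not tested, and the horizontal axis is gene order, not distance. Gjb2 and Gjb6 lie far below their tested neighbours Zmym2 and Cryl1.

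Genes whose proteins bind connexins or control their traffic and gating were split in direction. Of 33 listed, 30 were tested, of which 9 rose and 13 fell, with a median of -0.10. The largest changes were falls of Ocln (-2.48 ± 0.94, limma adjusted p = 0.000508), the tight junction protein occludin, and of the junction scaffolds Tjp3 (-1.45 ± 0.30) and Tjp1 (-1.02 ± 0.01), the latter a binding partner of the Gja1 protein. Cav2, a component of membrane caveolae, was at -0.98 ± 0.03 and also fell. Median centring turned the split to 22 higher and 4 lower, and the spike-in step to 0 and 30.

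The other cell junctions of the epidermis were described in the same way. In the tight junction list, 17 of 22 tested genes fell and 3 rose, around a median of -0.79, while median centring gave 11 lower and 7 higher. The lowest were the claudins Cldn7 (-3.44 ± 1.56), Cldn4 (-3.39 ± 0.81), Cldn3 (-3.37 ± 1.0) and Cldn23 (-2.91 ± 0.55), a range that holds the ratio of Gjb6. Desmosome genes, whose proteins rivet keratinocytes together, fell in 15 of 17 and rose in 0 (9 and 5 after median centring), with a median of -0.87. Dsg1a was at least 4.02-fold lower, a bound because Cy5 did not clear the background on any array. Its probe was bright enough to be tested through Cy3 alone.

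Further falls in the desmosome list were those of Evpl (-1.93 ± 0.46), Dsc2 (-1.85 ± 0.41) and Cdsn (-1.98 ± 1.37). Cdsn did not pass with the scanner software's processed signals (limma adjusted p = 0.0536) or with the deposited values (limma adjusted p = 0.0575). Adherens junction genes fell in 8 of 13 cases and rose in 2, around a median of -0.33, but median centring turned this to 2 lower and 9 higher around 0.37. Nectin4 (-1.69 ± 0.53), Ctnnd1 (-0.77 ± 0.29) and Nectin2 (-0.73 ± 0.29, but -0.0082 after median centring) fell, and Cdh3, the P-cadherin of basal cells, was at 0.74 ± 0.12 and rose, but lay at -0.019 after the spike-in step. Counts by list are descriptions, and no list was tested as a set.

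**Figure D5:**
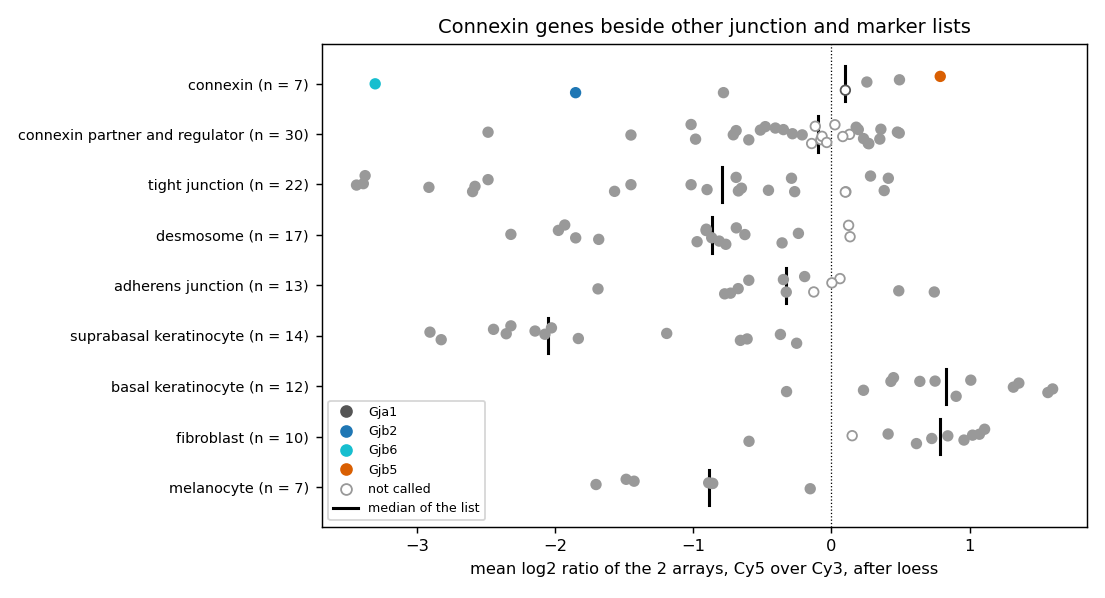
Mean log2 ratio of each tested gene in 9 fixed lists (points; open where the test was not passed), with the number tested in brackets and the list's median as a vertical line. Gjb6 lies in the range of the lowest tight junction genes, and Gjb5 lies near the medians of the basal keratinocyte and fibroblast lists, 0.83 and 0.78.

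Markers of cell layers and of other cells moved too, and in bulk RNA fewer cells of a type and less RNA per cell cannot be told apart. All 14 tested markers of suprabasal keratinocytes, the maturing cells above the basal layer, fell, with a median of -2.05. Their summed level, over probes after loess and scaling between channels, was 137500 and 177200 in Cy3 and 55620 and 49350 in Cy5. The cornified envelope genes Tgm1 (-2.90 ± 0.84) and Lor (-2.82 ± 0.89), Krtdap (-2.45 ± 0.85) and the regulator Ovol1 (-2.35 ± 1.23) led the list. The keratin genes Krt10 (-0.25) and Krt1 (-0.37) had its smallest falls, and the Cy5 signal of Krt1 did not clear background on any array. After median centring 12 of the 14 suprabasal markers were lower and 1 higher. Of 12 basal markers 11 rose, with a median of 0.83 that was 0.06 after the spike-in step. That step left 5 higher and 4 lower. Krt15 fell by 0.32 ± 0.02, and Krt5 rose least, by 0.23 ± 0.10. The summed level of the 12 markers went from 687600 and 676400 to 1133000 and 1182000. Krt5 and Krt14 had most weight in the Cy3 sums. Lamb3 (1.60 ± 0.38), Itgb4 (1.57 ± 0.39), Col17a1 (1.36 ± 0.22) and Lama3 (1.32 ± 0.44), parts of the anchorage to the basement membrane, led that list.

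Among 10 fibroblast markers 8 rose, with a median of 0.78, and Dcn fell by 0.60 ± 0.03. After the spike-in step the median was 0.02, with 3 higher and 3 lower. Thy1 (1.11 ± 0.21), Pdgfrb (1.07 ± 0.14), Col1a2 (1.02 ± 0.19) and Fn1 (0.96 ± 0.19) led the list. Fn1 did not pass after that step, at 0.20. The summed level of the 10 markers, with most weight on Vim, was 124200 and 100200 in Cy3 and 204700 and 185900 in Cy5. All 7 tested melanocyte markers fell, with a median of -0.89 and summed levels of 49530 and 50590 against 20780 and 18430. Dct had most weight in the Cy3 sums. After median centring 5 of the 7 markers were lower and 1 higher, with a median of -0.44. Mlana (-1.70 ± 0.24), Pmel (-1.49 ± 0.31), Dct (-1.43 ± 0.05) and Slc24a5 (-0.89 ± 0.05) were lowest, and Tyr was too dim to be tested.

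Endothelial markers were faint, with summed levels of 1565 and 1812 in Cy3 and 1761 and 2080 in Cy5. Pecam1, Cdh5 and Tek were too dim to be tested. Vwf fell by 0.43 ± 0.04, though its Cy5 signal cleared background on 1 array only. Eng (0.25 ± 0.02) and Kdr (0.21 ± 0.02) rose but lay at -0.51 and -0.55 after the spike-in step. Kdr also missed the threshold without the offset (limma adjusted p = 0.0588) and with the software's or the deposited values. Of 7 macrophage and Langerhans cell markers, Adgre1 (-1.15 ± 0.17) and Csf1r (-0.81 ± 0.02) fell, though in each the Cy5 signal cleared background on a single array. Cd68 was at 0.13 ± 0.06 (limma adjusted p = 0.084), while Ptprc, Cd207, Cd74 and Itgam were too dim to be tested. The part that these shifts have in the ratios of Gjb2, Gjb6 and Gjb5 was not tested.

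The genes most like each member were sought among 131 tested genes of the fixed lists, by the distance between their log2 ratios on the 2 arrays. With 2 points a gene, likeness here means little more than an equal ratio. Dsc2 (distance 0.19) and Mlana (0.21) lay nearest to Gjb2, and Cldn23 (0.75) and Cldn4 (0.78) nearest to Gjb6. Nearest to Gjb5 were Itga6 (0.06), an integrin of basal cells, and Cdh3 (0.07), both of which lay just below 0 after the spike-in step, at -0.014 and -0.019. For Gja1 they were the polarity gene Pard3 (0.02) and the desmosome gene Pkp2 (0.05), which lay at -0.66 and -0.63 after it. Over all genes tested, 80 lay as near to Gja1 as Pard3, 22 as near to Gjb2 as Dsc2, 16 as near to Gjb6 as Cldn23 and 65 as near to Gjb5 as Itga6.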

How the data were processed

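Per the file headers, the deposited scanner files were written by Agilent Feature Extraction 9.1.3.1 and hold each spot's mean intensity and median local background in both channels, uncorrected. Per the file headers they also hold processed intensities, a log10 ratio of Cy5 over Cy3 and its p-value from an error model. The deposited flags of 0 or 1 mark spots well above background, outlying or saturated. The deposited table of values equals that log10 ratio to within 0.005.

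From these, R 4.3.3 with limma 3.58.1 and data.table (version 1.17.8) corrected background (normexp, offset 50) and ran loess array by array, giving controls a weight of 0. Outliers (51 spots on array 1, 18 on array 2) were dropped and spots of a probe averaged. Probes that either dye showed well above background on each array, 23519 in all, were tested (lmFit, eBayes, mean against 0, two-sided, Benjamini-Hochberg). Each had 1 residual and 5.16 prior degrees of freedom. The script was tested on simulated data.

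A gene is its brightest tested probe. Of tested probes, 16129 were named by accession and 4721 by symbol through RefSeq (GRCm38.p6), 628 kept their name and 2041 had none. Summed levels and the bound are per channel after loess and Aquantile, open to dye bias without a swap. The bound divides the bright mean by the dim one, or by the faintest signal well above background where that is higher. Krt14, of the basal list, had a saturated spot. Both arrays came from 1 slide and 1 scan.

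The members and lists were chosen with earlier results of these data known. The text names the members, the other tested connexins and pannexins, up to 4 called genes of each list with the largest change, the 2 list genes nearest to each member, and Chuk. Some genes that this rule names are not reported here and were left out of the connexin list. Alternatives covered background, scaling, signal, filters, probes and left-out arrays.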

Additional observations from a re-analysis of the deposited data

How the results depend on the processing

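Gjb2 and Gjb6 stayed lower and past the threshold under the 10 alternatives of processing, at -2.61 to -1.20 and -4.30 to -2.86 in their brighter probes. Not all alternatives could move these ratios. Changes of filter and the keeping of outlier spots left the ratios of all members as they were, and the deposited values repeat the software's ratios. The dimmer probes of Gjb2 and Gjb6 were at -1.01 and -1.71 with the main processing, in part on undetected signals. They came as near to 0 as -0.88 with no background correction and -1.42 after median centring. With the software's processed signals they were at -2.75 and -2.82, again in part on undetected signals. Gja1 and Gjb5 kept their call under background, filter and signal alternatives. Scaling changed the rest, since it shifts all genes. Centring arrays on their median alone placed Gja1 at 0.78, past the threshold, and gave Zmym2 0.44. It gave 2 members called higher and 1 at least 2-fold higher, 10270 genes higher and 988 lower (91.2% of calls higher, against 53.9%), 1302 genes at least 2-fold higher and 228 lower. Counts higher and lower became 22 and 4 for their partners, 7 and 11 for tight junctions, 5 and 9 for desmosomes, and 9 and 2 for adherens junctions.

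Lowering by the spike-in mean gave Gja1 -0.66, Gjb5 0.024, Gja4 -0.27, Gjc1 -0.51, Panx1 -0.32, Cdh3 -0.019, Eng -0.51, Kdr -0.55, Pard3 -0.66, Pkp2 -0.63, Itga6 -0.014, Chuk -0.026 and Cryl1 -0.42. It left 0 members called higher and 3 lower, Gja1 now among them, 272 genes higher and 12503 lower (2.13% of calls higher), and 29 genes at least 2-fold higher and 2122 lower. Of the lists, 0 connexins were higher and 6 lower, 0 partners higher and 30 lower, and 0 tight or adherens junction genes higher. The software's processed signals gave 437 genes at least 2-fold higher and 684 lower and 5 partners higher, and the deposited values 434, 683 and 5. Leaving out 1 array gave 225 to 338 genes at least 2-fold higher. A single array has no test, so calls were not recomputed there.

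No paired analysis was possible because the arrays form a single group whose channels are already paired within each array. Signal over background limits the dimmer probes of Gjb2 and Gjb6, which shrink towards 0 with the offset and clear background in Cy5 on 1 array only, and the 11 untested connexins. The brighter Gjb6 probe also shrinks towards 0 with the offset, from -3.96 ± 0.37 to -3.30 ± 0.04. The number of arrays limits the precision.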
